A study of Homo sapiens with 8 samples.

Results

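The TRIM (tripartite motif) proteins form a family of human ubiquitin ligases, and their mRNAs were followed here in Alexander1 cells, an established epithelial line from a human hepatocellular carcinoma. A gene was a member when it was protein-coding and its symbol was TRIM followed by a number and at most 1 further letter. This gave 73 members among the 58206 genes of the count table. No count decided which genes were members, but the family itself was chosen by earlier results on the same libraries (the differences between the labels given below), so the numbers of members that changed are descriptions. RNA of 8 libraries was compared, 4 of the line as obtained (genotype label wt, Axin1 -, called parental here) and 4 labelled Axin1 +, called restored-labelled here. Per the series' design text, the parental line carries an AXIN1 deletion that removes the GSK3-binding part and leaves Wnt signalling always on, and the stable derivative expresses full-length Axin1 at a physiological level. All 8 samples share the cell line and the culture medium with fetal bovine serum. The labels of all 8 samples, the parental ones included, name retroviral transfer of an Addgene plasmid and hygromycin B selection of clones, while the genotype label ties that plasmid to the Axin1 + samples alone. The effects of Axin1, of viral transfer and of clonal selection therefore cannot be told apart, and the number of clones is not given in the sources used here.

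TRIM proteins are built from a RING finger, 1 or more B-box zinc fingers and a coiled coil, followed by a C-terminal part that differs between members and sets what each one binds. The RING finger recruits ubiquitin-conjugating enzymes, and the coiled coil lets the proteins pair. Members are known as antiviral effectors and sensors' partners in the interferon system, as chromatin cofactors, as regulators of the cytoskeleton and as developmental factors. In liver cells and liver tumours several of them have been studied as ligases for growth and signalling proteins.

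The libraries held between 11232951 and 26400782 counts. Restored replicate 1 lay nearest to the parental libraries on the first principal component (22.2 against 48.7 to 56.8 for the other restored-labelled libraries), and parental replicate 1 stood apart on the second. AXIN1, the gene that the design set out to change, was at 55.3, 52.8, 47.4 and 54.2 CPM (counts per 1000000 of the scaled library total) in parental replicates 1 to 4. It was at 47.6, 48.05, 48.2 and 37.7 CPM in restored-labelled replicates 1 to 4, and thus not higher there (log2 fold change -0.21, 95% confidence interval -0.48 to 0.07, edgeR adjusted p = 0.267). Directions below therefore rest on the labels. The 10 hepatocyte markers were all counted, with a summed level of 24270 to 28640 CPM in the parental and 18220 to 21910 CPM in the restored-labelled libraries, most of it from SERPINA1. They did not move together: SERPINA1, TF and APOA2 fell, FGB and TTR rose, and ALB was at 13.8 CPM in restored replicate 1 against up to 681 CPM in the other restored-labelled libraries. The 4 epithelial markers summed to 4147 to 5138 CPM and 3464 to 5089 CPM, with EPCAM near 0 and CDH1 higher in the restored-labelled libraries (log2 fold change 0.50, edgeR adjusted p = 0.0181). The 6 fibroblast markers summed to 2.708 to 3.22 CPM and 1.232 to 4.592 CPM, with COL1A2, COL3A1, DCN and LUM at or near 0 and PDGFRB lower (log2 fold change -2.87, edgeR adjusted p = 0.00454). Of the leukocyte markers, CD3E was at 0, CD68 and PTPRC were near 0, and LYZ was at 421 to 949 CPM in the parental and 672 to 919 CPM in the restored-labelled libraries. Of the 4 endothelial ones, CDH5, VWF and KDR were at or near 0, and PECAM1 carried the sum (4.58 to 6.77 CPM against 34.11 to 58.51 CPM). The part of these marker differences in the results was not tested, and in bulk RNA fewer cells with a transcript and less of it per cell cannot be told apart.

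Many TRIM genes had no or few counts in this line. Of the 73 members, 45 had enough counts to be tested and 28 had not. Among the 28, 15 had no count in any library, 7 had at most 3 counts in every library, and the other 6 had at most 19. The 15 were mostly recent copies, TRIM43, TRIM48, TRIM49, TRIM51 and TRIM64 with their lettered relatives, and also TRIM42, TRIM50, TRIM61, TRIM75P and TRIM77. Several of these share nearly all their transcript sequence with another gene (99.4% identity of TRIM43 with TRIM43B, 99.63% of TRIM49 with TRIM49C), so reads from them may have been assigned to no gene, and a count of 0 does not show that such a gene was silent. TRIM9 and TRIM67, known from neurons, had at most 1 and 12 counts in a library. A count of 3, chosen here as a floor, corresponded to 0.108 to 0.267 CPM, depending on the library. Members counted above this floor could still fall short of the filter for testing, whose minimum count was 10.

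Levels were compared between members only per length, as mean CPM per kilobase of annotated exon. TRIM28, the corepressor that KRAB zinc finger proteins recruit to chromatin, stood far above the others at 115 ± 19.6 (SD, n = 4) CPM per kilobase in the parental and 122 ± 11.6 in the restored-labelled libraries. It made up 32.3% of the summed level per kilobase of the 45 tested members in the parental and 32.1% in the restored-labelled libraries. TRIM26 followed at 29.9 ± 2.04 and 31.6 ± 2.50 CPM per kilobase, and TRIM27 was at 19.2 ± 0.140 and 20.1 ± 1.25. In the parental libraries TRIM31 (21.8 ± 6.27), TRIM56 (20.9 ± 8.74) and TRIM27 followed each other, and each step between them was smaller than the SD of TRIM31 and of TRIM56. TRIM55 took the last of the 45 places in the parental libraries and the fourth place in the restored-labelled ones, and TRIM29 moved from place 43 to place 27. In the parental libraries 12 tested members were below 1 CPM per kilobase, and in the restored-labelled ones 9 were.

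**Figure D1:**
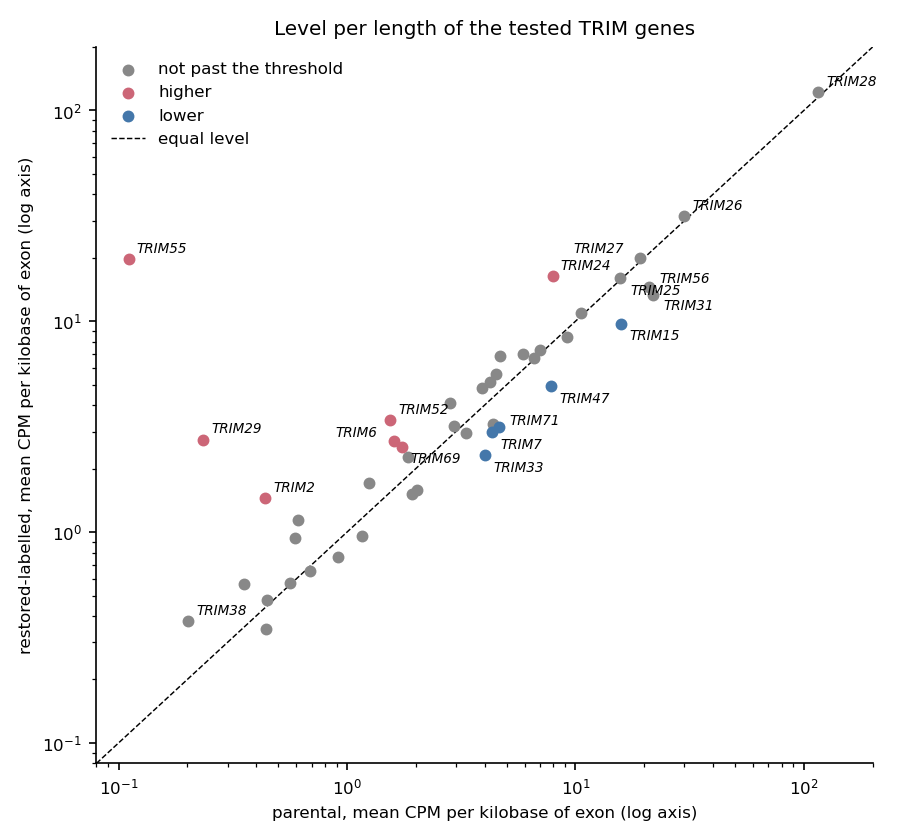
Mean level of the 45 tested TRIM genes in CPM per kilobase of exon, parental libraries on the x axis and restored-labelled libraries on the y axis (both log axes, n = 4 each); each point is 1 gene, and colour shows genes past an adjusted p of 0.05. Most genes lie near the line of equal level, TRIM28 lies at the top of both axes, and TRIM55 and TRIM29 lie far above the line.

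Between the labels, 12 of the 45 tested members (26.7%) passed an adjusted p of 0.05, against 19.2% of all genes tested. The p-values come from the quasi-likelihood test of edgeR and were adjusted by Benjamini and Hochberg's method over all 14289 genes. Higher in the restored-labelled libraries were 7 members (15.6%, against 10.4% of all genes), TRIM55, TRIM29, TRIM2, TRIM52, TRIM24, TRIM6 and TRIM69. Lower were 5 (11.1%, against 8.77%), TRIM33, TRIM15, TRIM47, TRIM71 and TRIM7. Over the tested members the median log2 fold change (restored-labelled over parental) came to 0.08, and over all genes to 0.00. It was above 0 in 29 members and below 0 in 16. In 10 members the 4 restored-labelled values all lay above the 4 parental ones (22.2%, against 12.7% of all genes), and in 5 they all lay below (11.1%, against 11.2%). Groups that did not overlap in either direction made up 23.9% of all genes. A difference of 2-fold or more was reached by 5 of the 12 (41.7%, against 40% of the calls over all genes), all higher. The number of members past the threshold depended on single libraries, as did the share of all genes. It was 7 (15.6%, against 10.5% of all genes) without parental replicate 2, 8 (17.8%) without restored replicate 3 (10.7%) or 4 (9.71%), and 15 (31.9%, against 24.1%) without parental replicate 1. The lower members alone were 2 without parental replicate 2, parental replicate 4 or restored replicate 3, and 3 without parental replicate 3, restored replicate 2 or restored replicate 4. Calls over all genes, in either direction, were fewer there too. In the same order they made up 10.5%, 14.7%, 10.7%, 14%, 14.6% and 9.71%, against 19.2% with all libraries. Without both libraries that stood apart, 17 members passed (37.8%, against 32.3% of all genes), all 12 among them. Scaled by total counts alone, 8 members were higher and 3 lower (24.4% together, against 18.1% of all genes). Of the calls over all genes, 66.5% were then higher, against 54.2% here.

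**Figure D2:**
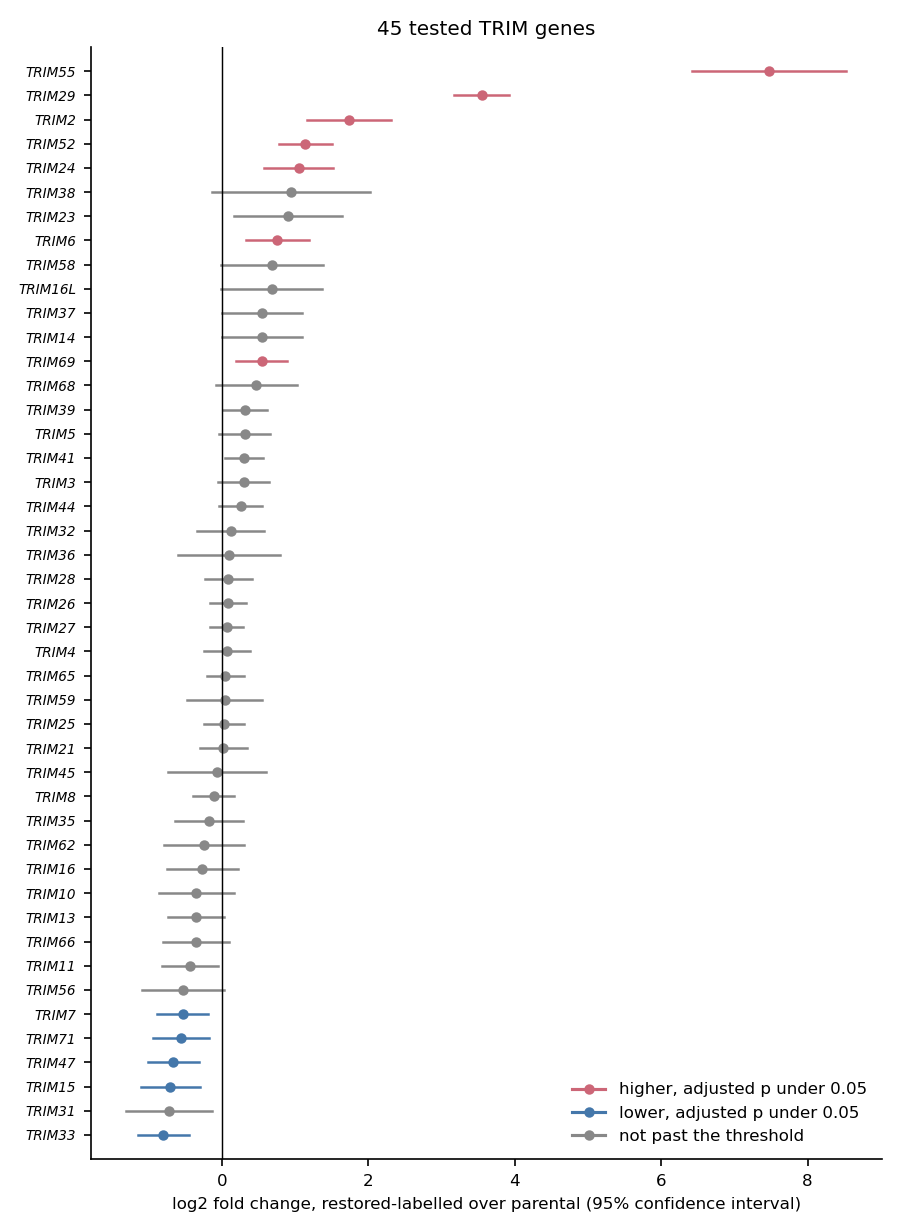
Log2 fold change, restored-labelled over parental, of the 45 tested TRIM genes with its 95% confidence interval (edgeR, n = 4 libraries a group), ordered by size; colour shows genes past an adjusted p of 0.05. TRIM55 and TRIM29 lie far to the right at 7.47 and 3.55, and the 33 genes without a call lie between -0.72 and 0.94.

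The largest difference was in TRIM55, also called MuRF2, 1 of the 3 muscle RING finger proteins, which bind microtubules and the sarcomere and are known from heart and skeletal muscle. TRIM55 (ENSG00000147573, chromosome 8, 66126896 to 66175487, plus strand) held 2, 3, 7 and 5 counts in parental replicates 1 to 4 and 711, 755, 1582 and 1957 in restored-labelled replicates 1 to 4. Its levels were 0.178, 0.203, 0.624 and 0.358 CPM and 25.5, 62.3, 77.96 and 76.4 CPM in the same order. The groups were far apart, and restored replicate 1 held less than the other restored-labelled libraries. Its log2 fold change was 7.47 with a standard error of 0.48 and a 95% confidence interval of 6.42 to 8.53 (adjusted p = 8.4e-06 by edgeR). Its relatives of the same COS-box class had no such level: TRIM63 (MuRF1) had at most 1 count and TRIM54 (MuRF3) at most 5 counts in any library. The 40 tested genes nearest to TRIM55 on its chromosome had a median log2 fold change of 0.13.

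TRIM29, or ATDC, has B-boxes but no RING finger and is known from squamous epithelia and from tumours, where it has been linked to the p53 and DNA damage responses. TRIM29 (ENSG00000137699, chromosome 11, 120111275 to 120185529, minus strand) was at 2.22, 2.17, 2.94 and 2.29 CPM in the parental replicates and at 30.2, 28.7, 25.8 and 27.6 CPM in the restored-labelled replicates. Both groups were tight and far apart, and here restored replicate 1 was the highest library of all. The mean rose from 2.41 CPM ± 0.360 to 28.1 CPM ± 1.87 (SD over 4 libraries), with a log2 fold change of 3.55 ± 0.17 (SE; adjusted p = 1.3e-06, edgeR), and its 40 nearest genes had a median of -0.05.

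TRIM52 has a RING finger with a long acidic loop and no substrate-binding domain at its C terminus. TRIM52 (ENSG00000183718, chromosome 5, 181254417 to 181261139, minus strand) was at 12.01, 8.60, 10.9 and 9.02 CPM in the parental and 18.7, 24.02, 22.9 and 23.4 CPM in the restored-labelled libraries, without overlap. Its log2 fold change was 1.14 ± 0.16 (SE; adjusted p = 0.00122, edgeR). The nearest 40 genes on this end of chromosome 5 had a median of 0.37. The transcript CTC-338M12.4 shares 1868 exon bases with TRIM52 on the opposite strand at a mean of 116.4 counts. It had a log2 fold change of 0.30 (edgeR adjusted p = 0.382), and whether counting used strand is not given in the sources used here.

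The other tested members without an assigned C-terminal domain did not pass the threshold. TRIM31, a RING ligase of gut epithelium and liver that acts on the antiviral adaptor MAVS, was at 109.6, 73.3, 64.2 and 61.5 CPM in the parental and 69.1, 53.2, 32.3 and 32.8 CPM in the restored-labelled libraries. These ranges overlapped, with a log2 fold change of -0.72 (95% confidence interval -1.30 to -0.13, edgeR adjusted p = 0.0840). Without restored replicate 1 it was -0.97 and passed (edgeR adjusted p = 0.0204). TRIM31 passed in 5 of 18 alternative analyses, those with DESeq2, with a replicate block and without a low-count filter among them. TRIM56, a ligase that takes part in nucleic acid sensing, had its highest value in parental replicate 1, at 377 CPM, against 128 to 211 CPM in the restored-labelled libraries, and the groups overlapped (log2 fold change -0.53, edgeR adjusted p = 0.172). TRIM8 and TRIM44 had log2 fold changes of -0.11 and 0.25. The exon sequence of TRIM56 includes stretches of at least 95% identity with transcripts of other genes, the longest being 651 bases with NDUFA9, so reads there could be assigned differently.

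**Figure D3:**
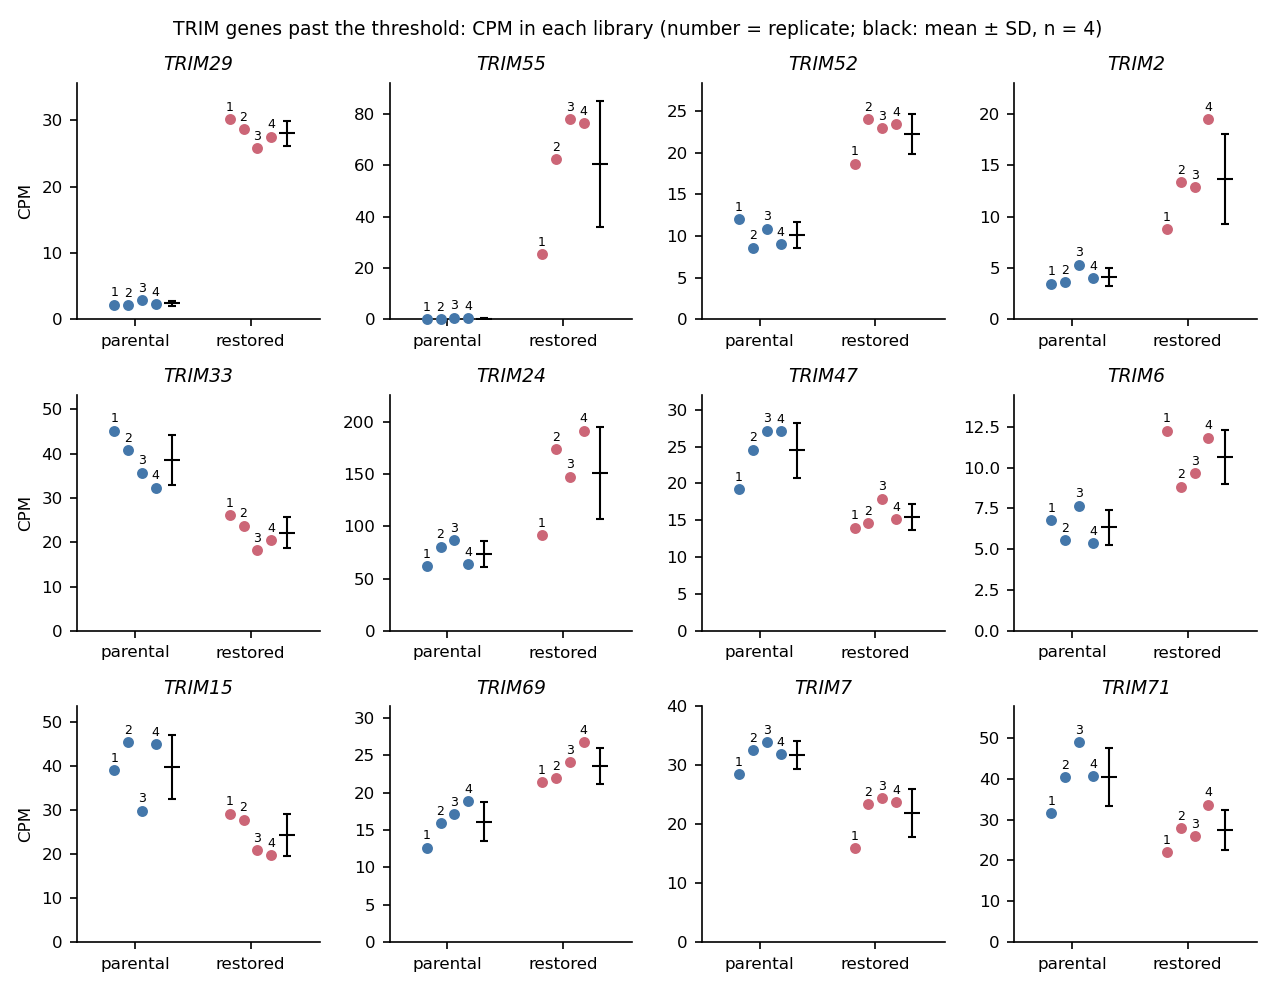
Level in CPM (y axis, starting at 0) of the 12 TRIM genes past the threshold in each of the 8 libraries; points are libraries with their replicate number, and black bars are the mean ± SD (n = 4). Restored replicate 1 is the lowest restored-labelled library for TRIM55, TRIM52, TRIM2, TRIM24, TRIM47, TRIM69, TRIM7 and TRIM71 and the highest for TRIM29, TRIM33, TRIM6 and TRIM15.

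The NHL-repeat class holds RNA-binding and neuronal ligases, and its 4 members were all tested. TRIM2, a ligase for neurofilament light chain that is needed in axons, rose. TRIM2 (ENSG00000109654, chromosome 4, 153152342 to 153339320, plus strand) was at 3.47, 3.66, 5.34 and 4.01 CPM in the parental and 8.82, 13.4, 12.9 and 19.5 CPM in the restored-labelled libraries, without overlap, with a log2 fold change of 1.73 ± 0.26 (SE; adjusted p = 0.00152, edgeR). TRIM71, the human LIN41 and a let-7 target of early development that represses mRNAs, fell. TRIM71 (ENSG00000206557, chromosome 3, 32818018 to 32897826, plus strand) was at 31.5, 40.4, 48.9 and 40.5 CPM in the parental and 21.95, 27.8, 25.97 and 33.6 CPM in the restored-labelled libraries. The 2 groups overlapped, since restored replicate 4 was above parental replicate 1. Its log2 fold change was -0.56 ± 0.17 (SE; adjusted p = 0.0432, edgeR), while its 40 nearest genes had a median of 0.22. The call was lost without parental replicate 2, 3 or 4 (edgeR adjusted p = 0.0984, 0.115 and 0.0796), or without restored replicate 1, 2 or 3 (0.0803, 0.0793 and 0.114), and also with total counts as the scaling (0.106) and after thinning to equal depth (0.0541). TRIM3 (0.29, 95% confidence interval -0.06 to 0.65) and TRIM32 (0.12, 95% confidence interval -0.34 to 0.58), the latter known from muscle disease, did not pass.

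Proteins of the PHD and bromodomain class act on transcription, some of them by reading histone tails. Of the 4 members of this class 1 rose and 1 fell (50%, against 19.2% of all genes). TRIM24, or TIF1-alpha, a cofactor of nuclear receptors and a ligase for p53, rose. TRIM24 (ENSG00000122779, chromosome 7, 138460334 to 138589993, plus strand) was at 61.8, 80.6, 86.9 and 63.8 CPM in the parental and 91.5, 174, 148 and 192 CPM in the restored-labelled libraries. Restored replicate 1 lay only just above the highest parental library, and the other 3 were clearly higher. The log2 fold change was 1.05 ± 0.22 (SE; adjusted p = 0.00814, edgeR), against a median of -0.13 in its 40 nearest genes. TRIM33, or TIF1-gamma, which binds SMAD proteins in TGF-beta signalling, fell. TRIM33 (ENSG00000197323, chromosome 1, 114392777 to 114511160, minus strand) was at 45.2, 40.8, 35.7 and 32.3 CPM in the parental and 26.1, 23.8, 18.2 and 20.5 CPM in the restored-labelled libraries, without overlap, with a log2 fold change of -0.80 ± 0.16 (SE; adjusted p = 0.00698, edgeR). The median of its 40 nearest genes on chromosome 1 was -0.57, and TRIM33 lay -0.23 from it. The part of this regional shift in the result for TRIM33 was not tested.

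TRIM28 was at 421, 439.5, 413 and 581 CPM in the parental and 513, 454, 547 and 453 CPM in the restored-labelled libraries, with a log2 fold change of 0.08 (95% confidence interval -0.24 to 0.41, edgeR adjusted p = 0.720). The groups overlapped, and parental replicate 4 was the highest library of all. TRIM66, which is known from the testis, was lower in all restored-labelled libraries without passing (log2 fold change -0.36, edgeR adjusted p = 0.247), and 94 of its exon bases are shared with the abundant RPL27A on the opposite strand. Among 17 chromatin partners of these proteins, 0 rose and 3 fell (17.6%, against 19.2% of all genes in either direction), with a median log2 fold change of -0.03. CBX3, the heterochromatin protein HP1-gamma that binds TRIM28, fell from 162 CPM ± 11.8 to 107 CPM ± 9.14 (SD over 4 libraries; log2 fold change -0.59, edgeR adjusted p = 0.00560). The histone deacetylase gene HDAC1 (-0.38, edgeR adjusted p = 0.0358) and SMAD3 (-0.56, edgeR adjusted p = 0.0459) also passed. Both calls were lost without parental replicate 2 or 4, or without restored replicate 2, 3 or 4 (edgeR adjusted p from 0.0753 to 0.137), and that of HDAC1 also without parental replicate 3 (0.0585) and without a filter on low counts (0.158). With total counts as the scaling the adjusted p was 0.118 for HDAC1 and 0.0976 for SMAD3. SETDB1, the histone methyltransferase recruited by TRIM28, had a log2 fold change of -0.13 (edgeR adjusted p = 0.497).

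The PRY/SPRY class, whose C-terminal domain binds target proteins, is the largest, with 23 tested of 40 members, and 2 rose and 3 fell (21.7%, against 19.2% of all genes). TRIM47, a ligase studied in carcinomas, fell. TRIM47 (ENSG00000132481, chromosome 17, 75874161 to 75878575, minus strand) was at 19.2, 24.6, 27.2 and 27.1 CPM in the parental and 13.99, 14.6, 17.9 and 15.2 CPM in the restored-labelled libraries, without overlap (log2 fold change -0.67, SE 0.16, edgeR adjusted p = 0.0154). TRIM15, a protein found at focal adhesions that takes part in their turnover, fell as well. TRIM15 (ENSG00000204610, chromosome 6, 30163206 to 30172696, plus strand) was at 39.1, 45.5, 29.9 and 45.01 CPM in the parental and 29.2, 27.9, 20.9 and 19.9 CPM in the restored-labelled libraries. The lowest parental and the highest restored-labelled values of TRIM15 nearly met. Its log2 fold change was -0.71 ± 0.18 (SE; adjusted p = 0.0219, edgeR), and the call was lost without parental replicate 2 or 4 (0.0715 and 0.0548), or without restored replicate 3 or 4 (0.0724 and 0.0722).

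TRIM7, first described as a partner of glycogenin, the primer of glycogen synthesis, also fell. TRIM7 (ENSG00000146054, chromosome 5, 181193924 to 181205293, minus strand) was at 28.5, 32.6, 33.9 and 31.9 CPM in the parental and 15.96, 23.4, 24.5 and 23.8 CPM in the restored-labelled libraries, where restored replicate 1 was the lowest. Its log2 fold change was -0.53 ± 0.16 (SE; adjusted p = 0.0379, edgeR), in a neighbourhood whose 40 nearest genes had a median of 0.38. The antisense transcript AC008443.4, which shares 196 exon bases with TRIM7, moved the other way (log2 fold change 1.38, SE 0.33, edgeR adjusted p = 0.0168) at a mean of 31.5 counts. The call for TRIM7 was lost without parental replicate 2, 3 or 4, or without restored replicate 2, 3 or 4 (edgeR adjusted p from 0.0606 to 0.0982), with total counts as the scaling (0.0827) and without a filter on low counts (0.0652).

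TRIM6, a ligase that makes free ubiquitin chains for the kinase IKK-epsilon, rose. TRIM6 (ENSG00000121236, chromosome 11, 5596109 to 5612958, plus strand) was at 6.76, 5.55, 7.66 and 5.37 CPM in the parental and 12.3, 8.83, 9.66 and 11.8 CPM in the restored-labelled libraries, without overlap, a log2 fold change of 0.76 ± 0.20 (SE; adjusted p = 0.0219, edgeR). Without parental replicate 2, parental replicate 4 or restored replicate 4 the adjusted p was 0.0739, 0.0563 and 0.0704. TRIM69, a microtubule-associated antiviral ligase, rose less. TRIM69 (ENSG00000185880, chromosome 15, 44728988 to 44767829, plus strand) was at 12.6, 15.9, 17.1 and 18.9 CPM in the parental and 21.4, 21.96, 24.1 and 26.7 CPM in the restored-labelled libraries, again without overlap, a log2 fold change of 0.54 ± 0.16 (SE; adjusted p = 0.0348, edgeR). That call was lost without parental replicate 2 or 3, or without restored replicate 2, 3 or 4 (edgeR adjusted p from 0.0539 to 0.1096), and after thinning to equal depth (0.0600). The median of the 40 genes nearest to TRIM69 on chromosome 15 was 0.26, and TRIM69 lay 0.29 from it. The part of this regional shift in the result for TRIM69 was not tested.

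The other 18 tested members of the PRY/SPRY class had log2 fold changes between -0.43 (TRIM11) and 0.94 (TRIM38). TRIM27 and TRIM26, the most abundant of the class, differed little, at 0.07 (95% confidence interval -0.16 to 0.29) and 0.08 (95% confidence interval -0.17 to 0.32). TRIM41, at 60.9, 48.8, 49.3 and 56.97 CPM in the parental and 65.6, 64.1, 71.2 and 64.1 CPM in the restored-labelled libraries, and TRIM39 were higher in all restored-labelled libraries and did not pass (edgeR adjusted p = 0.102 and 0.130). Without parental replicate 1 TRIM41 passed (log2 fold change 0.36, edgeR adjusted p = 0.0422), and it passed in 3 of 18 alternative analyses in all. TRIM39 shares 517 exon bases with the more abundant HCG18 on the opposite strand. TRIM16 and TRIM16L are 98.1% identical over 3189 transcript bases, so their separate values (-0.27 and 0.68) are uncertain.

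Members of the remaining classes did not pass. TRIM23, which ends in an ARF GTPase domain, was at 1.33, 2.17, 3.74 and 4.44 CPM in the parental and 5.67, 4.71, 5.03 and 6.48 CPM in the restored-labelled libraries, with no overlap and a log2 fold change of 0.90 (edgeR adjusted p = 0.0823). Without parental replicate 4 it was 1.184 and passed (edgeR adjusted p = 0.0439). TRIM23 passed in 4 of 18 alternative analyses, those with DESeq2, with limma-voom and without a low-count filter among them. TRIM37, a MATH-domain ligase that controls centrosome duplication, was at 16.6 to 32.2 CPM in the parental and 26.3 to 47.6 CPM in the restored-labelled libraries (log2 fold change 0.55, edgeR adjusted p = 0.148), where the nearest 40 genes had a median of 0.48. The transmembrane members TRIM13 and TRIM59, TRIM36 and TRIM45 had log2 fold changes of -0.35, 0.04, 0.10 and -0.06. TRIM59 shares 1561 exon bases with SMC4, TRIM13 346 with DLEU2 and TRIM37 324 with AC099850.1, all on the opposite strand, so their values are uncertain.

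Members induced by interferon were followed as a list of 10, of which 8 were tested. TRIM5, which binds incoming retroviral capsids, is the best known of them. Of the 8, 1 rose and 0 fell (12.5%, against 19.2% of all genes in either direction), with a median log2 fold change of 0.19 and 7 of 8 above 0. The one that rose was TRIM69, so the count was 0 in each analysis above that lost TRIM69, and it was 2, with TRIM38, without parental replicate 1. TRIM5 was at 17.3, 21.1, 20.2 and 16.2 CPM in the parental and 26.1, 18.99, 20.9 and 26.4 CPM in the restored-labelled libraries, which overlapped (log2 fold change 0.31, 95% confidence interval -0.05 to 0.66, edgeR adjusted p = 0.206). TRIM14, an adaptor of MAVS without a RING finger, was at 8.54, 15.03, 17.01 and 20.9 CPM in the parental and 26.2, 16.5, 23.8 and 23.2 CPM in the restored-labelled libraries, with parental replicate 1 far below the rest and an overlap between the groups. It had a log2 fold change of 0.55 (edgeR adjusted p = 0.149). It shares 422 exon bases with the more abundant NANS on the opposite strand.

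TRIM21, the cytosolic antibody receptor, was at 12.6, 14.01, 11.9 and 12.2 CPM in the parental and 11.2, 13.95, 13.1 and 13.2 CPM in the restored-labelled libraries. TRIM25, the ligase that acts with RIG-I and ZAP, was at 163, 148, 153 and 135 CPM and 179.5, 138, 148 and 143 CPM in the same order. Neither differed beyond its spread, with 95% confidence intervals of the log2 fold change of -0.31 to 0.34 and -0.24 to 0.30. TRIM38 was uneven in the parental libraries, at 4.54, 1.22, 1.16 and 0.644 CPM, against 4.23, 2.97, 3.65 and 3.40 CPM in the restored-labelled ones (log2 fold change 0.94, edgeR adjusted p = 0.206). Without parental replicate 1, its highest parental library, TRIM38 was among the members past the threshold. It was also past it with limma-voom and without both libraries that stood apart. TRIM22 and TRIM34, 2 further interferon-induced genes beside TRIM5, had at most 2 counts in any library of either label. Most exon bases of TRIM34 are shared on the same strand with another annotated gene, TRIM6-TRIM34. Reads there may have been assigned to no gene, so the low count does not show that TRIM34 was silent.

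Promoters were examined for the core of the interferon-stimulated response element (GAAA, then any 2 bases, then GAAA, on either strand). The windows came from the RefSeq table and ran from 250 bases before to 50 after each gene's start as RefSeq places it (GRCh38.p14). Among the 4 members printed below, this start lies inside the gene's annotated span for TRIM69 and for TRIM5 (5663557 to 5938619). The same holds for some members not printed, such as TRIM6, TRIM7 and TRIM15. A window was found for 56 of the 73 members. None was found for TRIM24, TRIM28, TRIM29 or TRIM55, so their promoters were not searched. The core was in 10 of the 56 (17.9%), against 3.17% of the windows of protein-coding genes and 3.57% of all windows. The 10 were the windows of TRIM2, TRIM5, TRIM14, TRIM16, TRIM21, TRIM26, TRIM34, TRIM44, TRIM64C and TRIM69. The TCF/LEF core of Wnt target genes, CTTTGAT on either strand, was looked for after the members' values were known. No match of it overlapped one of the response element core, and it was in 3 of the 56 (5.36%, against 1.98%), those of TRIM49, TRIM49C and TRIM69. TRIM49 and TRIM49C are near-identical copies (99.63% of transcript bases) without a count in any library. Among tested members with a window, the TCF/LEF core was in 1 of 33 (3.03%). The 4 sequences below are the 250 bases before the start for TRIM69 and TRIM2, the members with a window that rose and held the response element core, and for 2 interferon-induced members that held it and did not pass the threshold, TRIM5 and TRIM14. Matches are in capitals and are a description of letters, not of binding.
TRIM69 (chr15:44736278-44736527, plus strand): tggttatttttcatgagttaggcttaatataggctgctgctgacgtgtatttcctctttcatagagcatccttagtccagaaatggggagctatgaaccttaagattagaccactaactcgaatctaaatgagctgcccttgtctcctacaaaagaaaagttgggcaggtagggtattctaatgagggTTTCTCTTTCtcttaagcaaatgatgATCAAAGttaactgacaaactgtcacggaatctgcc
TRIM2 (chr4:153151913-153152162, plus strand): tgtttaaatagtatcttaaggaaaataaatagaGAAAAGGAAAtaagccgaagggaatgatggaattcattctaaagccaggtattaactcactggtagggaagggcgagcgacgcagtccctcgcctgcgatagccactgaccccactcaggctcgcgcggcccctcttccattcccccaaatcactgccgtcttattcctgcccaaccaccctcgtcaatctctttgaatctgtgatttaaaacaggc
TRIM5 (chr11:5685075-5685324, minus strand): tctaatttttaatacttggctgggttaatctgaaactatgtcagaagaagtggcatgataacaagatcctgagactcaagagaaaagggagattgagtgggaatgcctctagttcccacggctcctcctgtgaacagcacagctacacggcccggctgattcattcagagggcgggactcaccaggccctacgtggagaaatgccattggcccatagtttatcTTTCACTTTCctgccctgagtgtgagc
TRIM14 (chr9:98119223-98119472, minus strand): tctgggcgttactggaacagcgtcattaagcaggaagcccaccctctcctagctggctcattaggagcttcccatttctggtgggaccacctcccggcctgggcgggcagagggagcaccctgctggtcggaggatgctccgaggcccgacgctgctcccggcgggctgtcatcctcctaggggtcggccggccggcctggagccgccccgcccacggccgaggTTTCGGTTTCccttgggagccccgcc
In the TRIM69 window the first match is the response element core and the second the TCF/LEF core, and in the other 3 windows the match is the response element core. Counted from the gene's start, the response element core begins at base -62 in TRIM69, -27 in TRIM5, -26 in TRIM14 and -217 in TRIM2.

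The signalling partners of these members, from sensors of foreign nucleic acid to the interferon receptor, formed a list of which 21 genes were tested. Of them 5 rose and 0 fell (23.8%, against 19.2% of all genes in either direction), with a median log2 fold change of 0.19. The kinase gene TYK2 rose from 53.1 CPM ± 4.93 to 82.2 CPM ± 4.93 (SD over 4 libraries) and the receptor gene IFNAR1 from 66.3 CPM ± 6.59 to 107 CPM ± 20.9 (log2 fold changes 0.63 and 0.69, edgeR adjusted p = 0.00419 and 0.0107). TMEM173, which encodes STING, rose at a low level, from 0.404 CPM ± 0.226 to 1.42 CPM ± 0.128 (log2 fold change 1.78, edgeR adjusted p = 0.0137). The other two, named after their values were seen, were STAT2 (0.51, edgeR adjusted p = 0.0384) and the RNA sensor IFIH1 (0.57, edgeR adjusted p = 0.0495). DDX58, which encodes RIG-I, the partner of TRIM25, had a log2 fold change of 0.22 (edgeR adjusted p = 0.485), and MAVS one of -0.29 (0.0631). IRF7, a factor that interferon induces, had no count in any library. The count of this list was 3 without parental replicate 2 or 3, or without restored replicate 1, 2, 3 or 4. Calls over all genes then made up 10.5% and 14%, and 22%, 14.6%, 10.7% and 9.71%, in the same order.

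Ubiquitin-conjugating enzymes and their variants, which work with RING ligases, and the ubiquitin-activating enzyme UBA1, which charges them, were a list of 14 tested genes, with 2 higher and 2 lower (28.6%, against 19.2% of all genes). UBE2L6, the conjugating enzyme for the interferon-induced modifier ISG15, rose from 9.63 CPM ± 2.93 to 20.5 CPM ± 2.39 (SD over 4 libraries; log2 fold change 1.09, edgeR adjusted p = 0.00556). UBE2D2, a general partner of RING ligases, rose with a log2 fold change of 0.55 (edgeR adjusted p = 0.00733). UBE2K and, named after its value was seen, UBE2E2 fell, with log2 fold changes of -0.51 and -0.50 (edgeR adjusted p = 0.0265 and 0.0333). UBE2K no longer passed without parental replicate 2 or 3, or without restored replicate 3 or 4 (edgeR adjusted p from 0.0617 to 0.0880) or with total counts as the scaling (0.0795), and the list then held 2 calls. Over all genes, 9.71% (without restored replicate 4) to 18.1% (total counts) passed in these analyses.

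Of 7 TRIM proteins that carry other symbols, 3 were tested. By edgeR, 0 passed at an adjusted p of 0.05, against 19.2% of all genes. An unadjusted p under 0.05 was found for 1 of the 3, and for 4786 of all 14289 genes. PML, the organizer of nuclear bodies, had a log2 fold change of -0.00 (95% confidence interval -0.29 to 0.29). MID1, a microtubule-bound ligase for protein phosphatase 2A, was at 233, 130.1, 119.9 and 129 CPM in the parental and 198, 228, 203 and 229 CPM in the restored-labelled libraries, with parental replicate 1 as high as the restored-labelled ones. Its log2 fold change was 0.49 (edgeR adjusted p = 0.116), and without parental replicate 1 it was 0.76 and passed (edgeR adjusted p = 0.0010). MID1 passed in 4 of 18 alternative analyses in all. MID2 had a log2 fold change of -0.35 (edgeR adjusted p = 0.415).

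TRIM genes lie in clusters, and 36 of the 73 members had another member within 1000000 bases, in 11 clusters. Neighbours did not always move together. At the end of chromosome 5 the genes TRIM7, TRIM41 and TRIM52 lie within gaps of 17205 and 18607 bases. Their log2 fold changes were -0.53, 0.30 and 1.14, with TRIM7 lower, TRIM52 higher and TRIM41 without a call. On chromosome 17 TRIM47 and TRIM65 are 1759 bases apart, and TRIM47 fell while TRIM65 differed little (0.05, 95% confidence interval -0.21 to 0.30). In the cluster of the major histocompatibility region on chromosome 6, the values along the chromosome were -0.72 for TRIM31, -0.35 for TRIM10, -0.71 for TRIM15, 0.08 for TRIM26 and 0.31 for TRIM39. On the short arm of chromosome 11, TRIM21, TRIM68, TRIM6, TRIM5 and TRIM3 had values of 0.02, 0.47, 0.76, 0.31 and 0.29, and only TRIM6 passed.

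**Figure D4:**
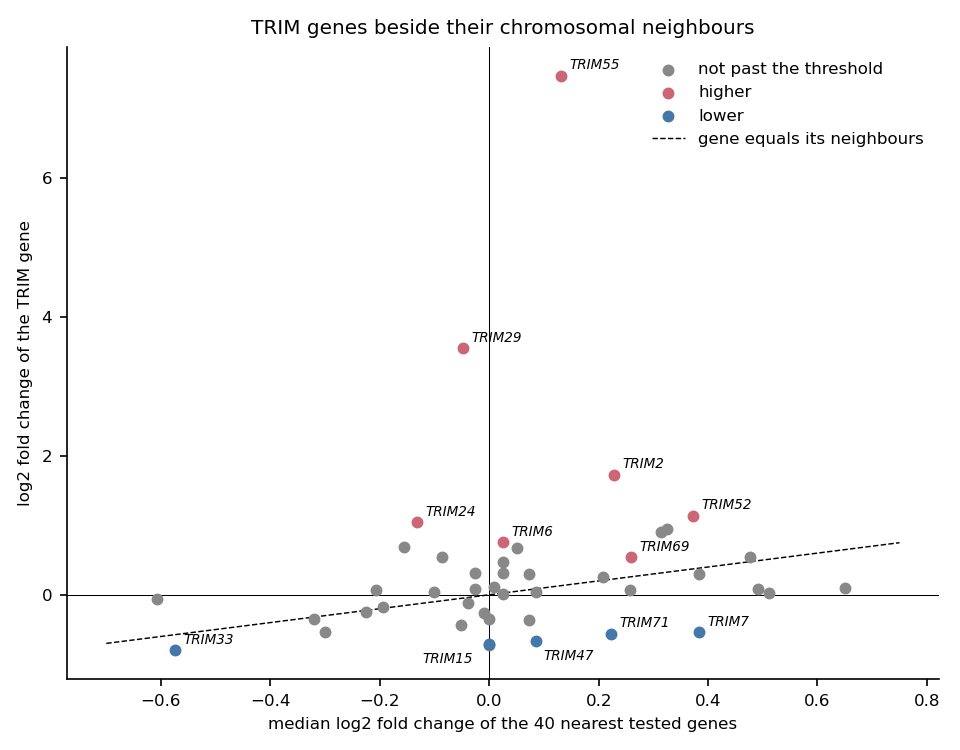
Log2 fold change of each of the 45 tested TRIM genes (y axis) against the median log2 fold change of its 40 nearest tested genes on the same chromosome (x axis); the dashed line marks a gene equal to its neighbours. TRIM55 and TRIM29 stand far above neighbours near 0, TRIM33 lies close to the line at -0.80 against -0.57, and TRIM7 lies below 0 where its neighbours lie at 0.38.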

How the data were processed

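Alexander1 libraries, 4 parental and 4 labelled Axin1 +, were grouped by their titles. Per the labels' protocols, total RNA went into an mRNA library kit. The authors deposited raw counts per gene, without normalization. The submitters' processing notes name bcl2fastq, fastp 0.23.1, STAR 2.7.4 and GRCh38, and the counting program and strand use are not given in the sources used here. All 8 columns matched 1 sample each, and 57943 of 58206 identifiers were found in GENCODE 29 (GRCh38), the source of symbols, positions and exon lengths. The table held no rows of the mitochondrial chromosome.

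In R 4.3.3 with edgeR 4.0.16, genes passed filterByExpr (minimum count 10, minimum total 15), TMM scaled the libraries, and the quasi-likelihood test compared the groups without covariates. P-values are two-sided with Benjamini-Hochberg adjustment over 14289 genes. Standard errors are the log2 fold change over the root of F. CPM uses TMM-scaled totals, principal components log2 CPM with a prior count of 2. Nothing says that replicates were separate cultures, so p-values measure the spread between these libraries, which may be technical. Same-label pairs differed by more than counting noise (chi-square per degree of freedom 8.59 to 82.9).

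On simulated counts of 14085 genes, edgeR recovered 96.8% of 4-fold and 53.9% of 2-fold changes among 195 changed genes, with 5.23% of calls false. Alternatives were other scalings and filters, DESeq2 1.42.0, limma-voom (limma 3.58.1), a replicate block, thinning to 11232951 counts, a threshold of 0.01 for the adjusted p, and analyses lacking 1 library each. Leaving out both libraries that stand apart was added after seeing the data. Members and lists were chosen with earlier results of these data known. Genes named are AXIN1, members with an adjusted p under 0.05 or groups that do not overlap, 13 fixed genes, the 5 members of highest level per kilobase and 3 per list by p. Others are named as values of their class, list or neighbourhood, or as said. Copies were sought with blastn (at least 95% identity over 200 bases), and planned protein features of members were not computed because no protein table was used here.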

Additional observations from a re-analysis of the deposited data

Results flagged for a closer look

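In 6 of 76 groups of 4 libraries (38 named genes, 2 groups each), 1 library lay far from the other 3, where chance alone gives about 1 in 20 groups. The gap to the nearest library, as a share of the group's whole range, had to exceed Dixon's 95% critical value. AXIN1 in restored replicate 4 was at 37.7 CPM against 47.6 to 48.2 CPM in the others (share 0.939). MID1 in parental replicate 1 was at 233 CPM against 119.9 to 130.1 CPM (share 0.91). TRIM7 in restored replicate 1 was at 16.0 CPM against 23.4 to 24.5 CPM (share 0.877). TRIM28 in parental replicate 4 was at 581 CPM against 413 to 439.5 CPM (share 0.844). TRIM29 in parental replicate 3 was at 2.94 CPM against 2.17 to 2.29 CPM (share 0.84). PML in parental replicate 4 was at 31.5 CPM against 24.1 to 25.3 CPM (share 0.839).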

How the results depend on the processing

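TRIM55, TRIM29, TRIM52, TRIM2, TRIM24, TRIM33 and TRIM47 kept their direction and stayed past the threshold of 0.05 in all 18 alternatives that refitted the genes. In the main analysis all of these but TRIM47 also passed 0.01. Without restored replicate 4 the edgeR adjusted p was 0.0286 for TRIM33 and 0.0303 for TRIM24. Without 1 library each, calls over all genes ranged from 1394 (9.71%, restored replicate 4 left out) to 3523 (24.1%, parental replicate 1 left out). Members higher then ranged from 5 to 10, members lower from 2 to 6 and the median over members from 0.039 to 0.124. Calls ranged from 0 to 2 among interferon-induced members, 0 to 1 among TRIM proteins under other symbols, 2 to 4 among ubiquitin enzymes, 3 to 5 among sensing partners and 1 to 4 among chromatin partners, and AXIN1 from -0.258 to -0.126. With total counts only, the median over all genes moved to 0.086 and that over members to 0.1586, 66.5% of calls over all genes were higher (54.2% with TMM), members lower numbered 3, and the lists under other symbols, of ubiquitin enzymes and of chromatin partners held 1, 2 and 1 calls. Without a low-count filter the list under other symbols held 1, DESeq2 gave 5 chromatin partners and limma-voom 2 interferon-induced members. Over all genes, 10.6%, 24.6% and 19.8% passed, in the same order. An adjusted p under 0.01 left 964 genes (6.75%) and 6 members (13.3%), 1 of them lower. It left 0 interferon-induced members, 2 ubiquitin enzymes, 1 sensing partner and 1 chromatin partner. Thinning left 0 interferon-induced members, with 18.5% of all genes called. Without both libraries of replicate number 1, 4623 genes (32.3%) passed, the median over members was 0.0203, and interferon-induced members and other symbols held 2 and 1 calls. The cause of these shifts was not tested.

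Same-numbered libraries did not deviate together (correlations -0.0629, 0.00667, -0.0325 and 0.227, with only number 4 highest for its own number), so the numbers were not taken as pairs. The replicate block called 12 members (26.7%, against 14.2% of all genes), 11 of them shared with the analysis without it. It also called 2 ubiquitin enzymes and gave PML a log2 fold change of 0.003315. The adjusted p under the block was 0.0502 for TRIM71, 0.0670 for UBE2K and 0.0976 for HDAC1. Log2 fold changes near 0 changed sign without a call: PML was 0.076 with total counts, 0.024 without the filter, 0.00303 with limma-voom and -0.051 to 0.091 without 1 library. TRIM21 was -0.0013 with limma-voom and -0.022 to 0.076 without 1 library, and TRIM25 -0.063 to 0.072 without 1 library and -0.019 without both of number 1. Of 665 values of 37 single genes, 585 kept direction and call, 51 lost the call, 16 gained it and 13 changed sign. With 195 of 14085 genes changed, edgeR recovered 53.9% of 2-fold changes on simulated counts, while 19.2% of all genes passed in the data. How large a difference could be missed in a member without a call was not tested.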

Other observations

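Genes that carry a TRIM name without coding for a member were read from the same fit and are named after their values were seen. TRIM52-AS1, a processed transcript beside TRIM52, had 112, 76, 63 and 66 counts in parental and 203, 145, 226 and 243 counts in restored-labelled replicates 1 to 4, with a log2 fold change of 0.65 ± 0.27 (SE; adjusted p = 0.115 by edgeR), and did not pass the threshold. The pseudogene TRIM60P18 was counted in all 8 libraries (15 to 61 counts) and had a log2 fold change of -0.60 (edgeR adjusted p = 0.214), while TRIM60 itself had 1 count in 1 library. TRIM31-AS1 had 1 to 3 counts in each parental library and at most 1 in each restored-labelled library, too few to be tested.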
